A study of Danio rerio with 24 samples.

Results

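The question here is whether the liver response to the higher of a pair of rotenone concentrations was the same in both sets of zebrafish that make up this study. The 18 one-year-old fish used are part of 24 in all. Each was a male of the AB JxTu strain, and each gave 1 liver RNA-seq library. Fish 163, 165, 166 and 167 were labelled with 3.75 nM rotenone and fish 173, 174, 175 and 177 with 37.5 nM; these 8 are called the lower number series. Fish 189 to 193 were labelled with 3.75 nM and fish 198 to 202 with 37.5 nM; these 10 are called the upper number series. The quantity tested was the interaction term, the log2 change from 3.75 to 37.5 nM in the lower series minus the same change in the upper series. A negative term means a change that was more downward, or less upward, in the lower series.

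The labels do not say what separated the number series (tank, clutch, date or treatment schedule), and no fish is labelled as untreated. The length of exposure is not given in the sources used here. The fish at 3.75 nM and those at 37.5 nM were deposited in separate count tables. A difference between the tables that is constant for a gene on the log2 scale drops out of the interaction term, but anything that differed between the series at 1 concentration does not. In whole liver, fewer cells of a type and less RNA per cell cannot be told apart.

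Rotenone blocks complex I, the entry point of electrons from NADH into the mitochondrial respiratory chain. The liver is where dietary sugar is turned into fatty acids and where, between meals, insulin signalling falls, FOXO factors become active and autophagy supplies amino acids. Protein damage in the cytosol releases the transcription factor HSF1, which drives Hsp90 and Hsp70 genes, while unfolded protein in the endoplasmic reticulum drives a separate set led by the chaperone HSPA5. These pathways order the account below.

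Total counts were 24644663 to 45297644 per library, with group medians of 30793418 (lower series, 3.75 nM), 33811929 (lower, 37.5 nM), 32576278 (upper, 3.75 nM) and 37733890 (upper, 37.5 nM). The 35 tested hepatocyte markers summed to between 146105 and 455923 CPM (counts scaled to equal library size) in every library. Messages of neighbouring organs also varied: the mean log2 CPM of 41 intestine markers lay more than 2 above the median of the 18 fish in fish 166, 190, 192, 198 and 200, and that of 33 exocrine pancreas markers did so in fish 165 and 190. Within each group no library repeated another within counting noise, with a chi-square of at least 89.3 per gene between replicates. Libraries of different groups were not compared in this way.

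Of 17217 genes tested, 1089 (6.33%) passed the interaction test at a Benjamini-Hochberg adjusted p below 0.05 in edgeR's quasi-likelihood test, and 3744 had an unadjusted p under 0.05. The term was positive in 786 genes (4.57% of those tested) and negative in 303 (1.76%). Over all genes tested the median term was 0.01. With relative log expression (RLE) factors in place of TMM factors the count was 1060, and positive terms made up 62.2% of it in place of 72.2%. Without the fish of high exocrine pancreas score the balance turned, to 844 positive and 1000 negative (45.8% positive), and DESeq2 gave 54.2% positive. Negative terms included those of the inducible chaperone HSP90AA1 and of fatty acid synthase, and positive ones those of the autophagy receptor CALCOCO1 and the tryptophan-degrading enzyme tdo2b.

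**Figure D1:**
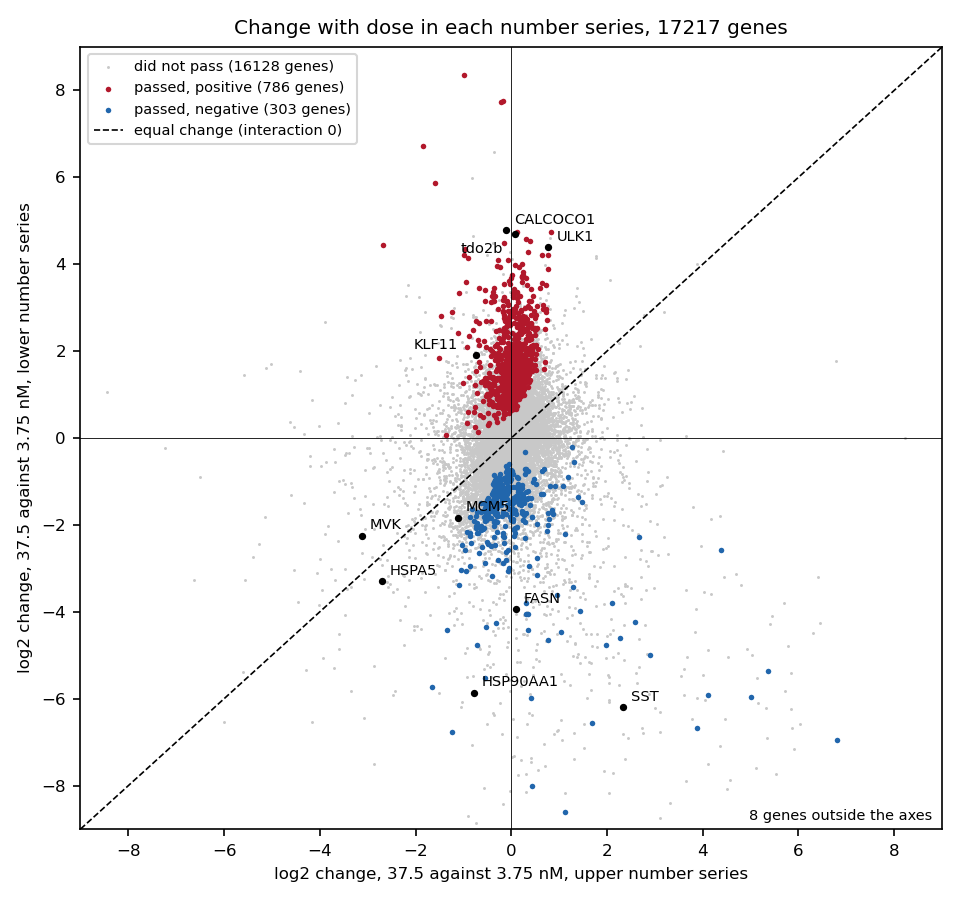
Each point is 1 of 17217 genes, with the log2 change from 3.75 to 37.5 nM in the upper number series on the x axis and in the lower series on the y axis; 8 genes lie outside the axes. Genes passing the interaction test (red, 786 positive; blue, 303 negative) stretch along the y axis near an upper series change of 0, and the dashed line marks equal change.

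In most passing genes the larger change was that of the lower series. Their median absolute change was 1.6 log2 in the lower and 0.21 in the upper series, against 0.57 and 0.26 over all genes tested. In 918 of them (84.3%, against 74.7% of all tested) the upper series change was under 0.5 in size. The changes had the same sign and were larger in the lower series in 616 genes (56.6%, against 46.8% of all tested). They had opposite signs in 473 (43.4%, against 38.4% of all tested), of which 379 had an upper series change under 0.5. Passing genes with the same sign and a larger change in the upper series numbered 0 of 1089, a form that 14.9% of all tested genes took. Opposite signs with at least 1 log2 in each series were seen in 31 passing genes, and this form was not counted over all genes tested.

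Setting each group against the mean of the other 3, the lower series fish at 3.75 nM lay farthest out in 927 of the 1089 passing genes (85.1%), against 48.2% of all genes tested. The lower series fish at 37.5 nM did so in 144 (13.2%, against 25.2% of all tested). The upper series fish did so in 6 at 3.75 nM (0.55%, against 9.96%) and in 12 at 37.5 nM (1.1%, against 16.7%). In 610 passing genes (56.0%) all 4 lower series fish at 3.75 nM lay beyond all 14 other fish, below them in 410 and above them in 200. Over all genes tested 1813 (10.5%) had that arrangement. Within the lower series the dose groups did not overlap in 1052 passing genes (96.6%, against 33.2% of all tested), and within the upper series in 32 (2.94%, against 1.5%). These shares describe the genes the test picked and are not a second test.

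The 5 upper series fish at 3.75 nM were set against the median log2 CPM of the lower series 3.75 nM group. Fish 189 was the nearest to it in 651 passing genes (59.8%, against 34.4% of all tested), and fish 190 in 225 (20.7%). Whether the library of fish 189 carries the right label cannot be checked from the deposited counts, and this bears on each value that turns on it, those of HSPA5 and GNL3 included. For HSP90AA1 fish 189 had 8.04 CPM, against 113 to 289 CPM in the lower series fish at 3.75 nM. It had 1.73 against 58.7 to 133 CPM for hsp70.3, and 1094 against 3748 to 13372 CPM for FASN. For HSPA5, tdo2b and KLHL24 it lay within the range of those fish. Without fish 189 the count rose to 2048, including 1088 of the 1089 genes. Without fish 173, 174, 175 or 177 it was 676, 521, 519 and 692, without fish 166 or 167 it was 525 and 516, and without fish 192 or 193 it was 710 and 659. Without the 5 fish with high intestine scores together 80 genes passed, 72 of them among the 1089. That left 3 fish in each of 3 groups, fish 189 among them. Without fish 189 as well 1705 genes passed, of which 801 were among the 1089. That last fit kept only 2 upper series fish at 3.75 nM. Of the 53 passing genes named below, 34 passed in each of the 18 fits without 1 fish, and none changed sign in any alternative fit.

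**Figure D2:**
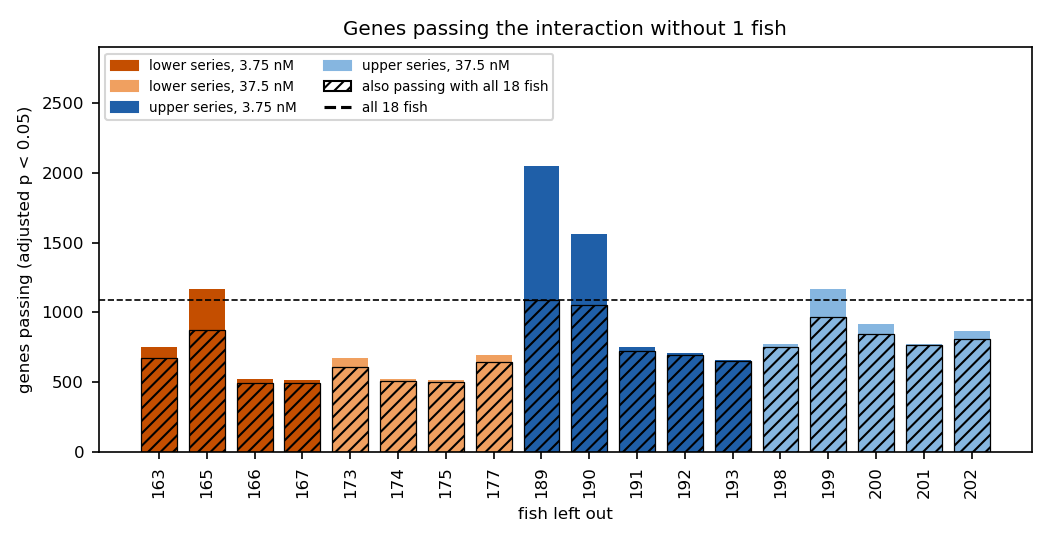
Bars give the number of genes passing the interaction test (y axis) when the fish on the x axis is left out, coloured by group; the hatched part also passed with all 18 fish, and the dashed line marks their 1089. The count was lowest without fish 167 (516) and highest without fish 189 (2048).

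Heat shock chaperones of the cytosol, listed with their co-chaperones and partners, had the highest share of calls of the 49 lists. HSF1 activity was not measured. Of 53 tested members, 12 passed, all with a negative term. They made up 22.6% of the list, against 1.76% of all genes with a negative call and 6.33% with any call. The median term of the list was −0.67 beside 0.01 for all genes. The median change of the list was −0.95 in the lower and −0.35 in the upper series. The 12 were HSP90AA1, hsp90aa1.1, hsp70.3, HSPA2, HSPA4, the J-domain co-chaperones dnaja1, dnajb1a and dnajb1b, and the Hsp90 or Hsp70 partners AHSA1, STIP1, PTGES3 and HSPBP1. In 26 of the 53 members all 4 lower series fish at 3.75 nM lay beyond all 14 others, an arrangement that 10.5% of all genes had. It was also held by 23 of 57 genes of ER stress and folding, 20 of 33 mitochondrial chaperones, proteases and import factors, 20 of 50 translation factors, 18 of 50 proteasome genes and 12 of 19 tRNA synthetases. Leaving out any 1 fish gave 12 to 15 negative calls in the list of cytosolic heat shock chaperones, and leaving out the fish with high intestine scores gave 5. Over all genes those fits gave 156 to 724 and 30 negative calls.

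HSP90AA1 (ENSDARG00000024746), the inducible cytosolic Hsp90, stood at 278, 289, 145 and 113 CPM in lower series fish 163, 165, 166 and 167. In lower series fish at 37.5 nM it stood at 2.97, 3.54, 3.55 and 4.15 CPM. The upper series fish had 8.04, 4.55, 6.15, 3.55 and 2.73 CPM at 3.75 nM and 3.74, 2.28, 2.23, 2.68 and 3.56 CPM at 37.5 nM. The 4 fish of the first group were thus the only ones of 18 above 10 CPM. The change was −5.86 ± 0.41 (SE) log2 for the lower and −0.79 ± 0.30 for the upper series, a term of −5.07 ± 0.48 (edgeR adjusted p = 0.000165), and it passed in every alternative fit tried. The second Hsp90 row, hsp90aa1.1 (ENSDARG00000010478), was far less abundant, at 2.63 to 8.65 CPM in those 4 fish and at most 0.80 CPM in the other 14, with a term of −5.50 ± 0.97 (edgeR adjusted p = 0.00563).

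The inducible Hsp70 gene hsp70.3 (ENSDARG00000021924) showed the same arrangement. Its levels were 133, 111, 73.9 and 58.7 CPM in the lower series fish at 3.75 nM and 0.465 to 1.73 CPM in those at 37.5 nM. Upper series fish had 0.262 to 1.73 CPM at 3.75 nM and 0 to 0.587 CPM at 37.5 nM, so that the lower series fish at 3.75 nM did not overlap with any others. The term was −5.52 ± 1.05 (edgeR adjusted p = 0.00904). HSPA4, an Hsp110-type exchange factor that reloads Hsp70, stood at 470, 515, 296 and 253 CPM in the same 4 fish, and at 11.5 to 23.2 CPM in lower series fish at 37.5 nM. In the upper series it went from 27.7 to 116 CPM at 3.75 nM to 17.6 to 36 CPM at 37.5 nM, and the term was −3.08 ± 0.53 (edgeR adjusted p = 0.0055). The symbol HSPA4 is shared by 2 rows, and the value is that of ENSDARG00000004754.

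The 3-year fish, all at 37.5 nM and not in the fit, had HSP90AA1 at 1.70 to 4.82 CPM and hsp70.3 at 0.193 to 0.585 CPM, within or close to the range of the 1-year fish at the same concentration. They carry the Tg(flk:mCherry) transgene, and no 3-year fish is labelled with 3.75 nM.

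**Figure D3:**
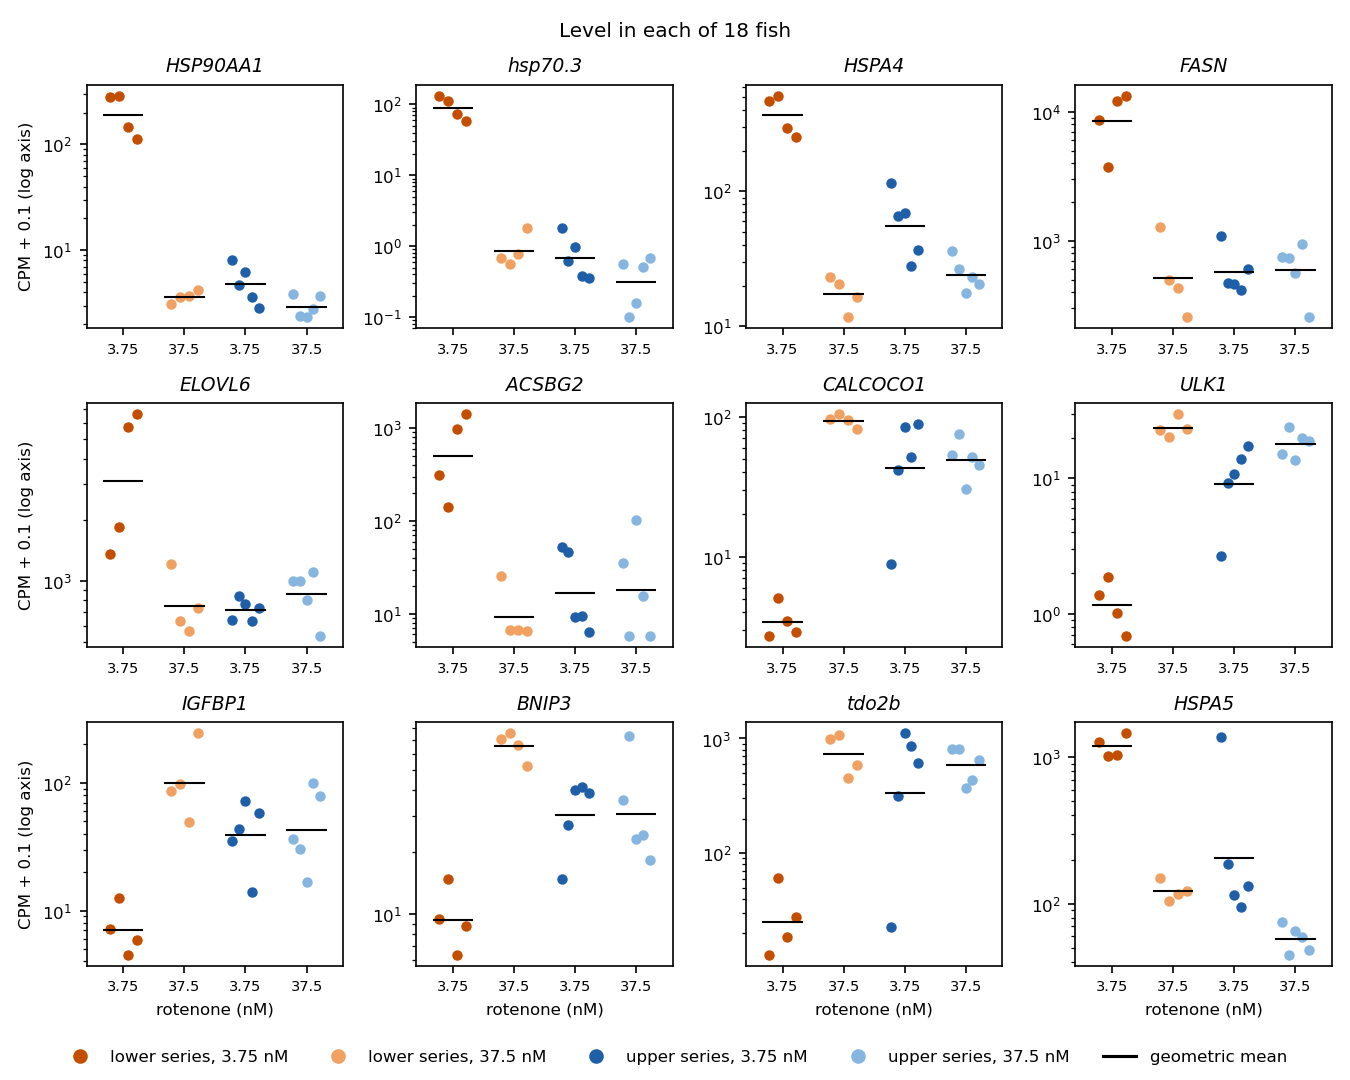
CPM plus 0.1 on a log axis for 12 genes, 1 point per fish, by rotenone concentration and number series, with the geometric mean as a bar. The lower series fish at 3.75 nM (dark orange) stand apart from the other 14 in most panels, and fish 189 is the upper series 3.75 nM fish (dark blue) at 1370 CPM in the HSPA5 panel and at 22.7 CPM in the tdo2b panel.

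Of 57 tested genes of ER stress and folding, which include the chaperones of the endoplasmic reticulum, 1 passed (1.75%, against 6.33% of all genes), with a median term of −0.11 and median changes of −0.66 (lower) and −0.49 (upper). HSPA5 (ENSDARG00000103846), the main Hsp70 of the ER, stood at 1277, 1021, 1034 and 1456 CPM in lower series fish at 3.75 nM and at 104 to 150 CPM in those at 37.5 nM. In the upper series fish 189 had 1370 CPM, the other 4 fish at 3.75 nM had 95.3 to 188 CPM, and the 5 fish at 37.5 nM had 44.6 to 74.8 CPM. Within each series every fish at 37.5 nM was below every fish at 3.75 nM. The term was −0.58 ± 0.87, with a 95% interval from −2.43 to 1.27 (edgeR adjusted p = 0.741). Without fish 189 the term of HSPA5 was −2.10 (edgeR adjusted p = 0.000768). The gene that passed was creb3l3a, a membrane-bound transcription factor of hepatocytes, with 29.2 to 40.3 CPM in lower series fish at 3.75 nM and 40.9 to 159 CPM in the others (term 1.6 ± 0.44, edgeR adjusted p = 0.0431). It lost its call in 14 of the 18 fits without 1 fish.

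Genes that make and store fatty acids were the second group with negative terms. Of 40 tested members 6 passed, 5 negative and 1 positive (15% in all, against 6.33% of all genes), and the list median was −1.05, from a median change of −1.03 (lower) and 0.03 (upper). The 5 were FASN, ELOVL6, ACSBG2, AGPAT2 and plin3, which build, lengthen, activate, esterify and package fatty acids, and the 1 positive gene was the lipase PNPLA2 at 2.96 ± 0.73 (edgeR adjusted p = 0.0251). Fits without 1 fish gave 3 to 10 negative and 0 to 3 positive calls in fatty acid synthesis and lipid storage, and the fit without the fish of high intestine score gave 0 of either. Over all genes the former gave 156 to 724 negative and 287 to 1324 positive calls, and the latter 30 and 50. FASN (ENSDARG00000087657), fatty acid synthase, had 8586, 3748, 12112 and 13372 CPM in lower series fish at 3.75 nM. It had 256 to 1285 CPM in those at 37.5 nM, 417 to 1094 CPM in upper series fish at 3.75 nM and 259 to 944 CPM in those at 37.5 nM. The first group did not overlap with the rest, which overlapped with each other. The FASN change was −3.94 ± 0.57 (lower) and 0.09 ± 0.45 (upper), a term of −4.03 ± 0.71 (edgeR adjusted p = 0.0056).

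ELOVL6, the elongase that carries palmitate on to stearate, stood at 1354, 1832, 5732 and 6602 CPM in the lower series fish at 3.75 nM and at 533 to 1211 CPM in the other 14 fish. Fish 166 and 167 were the high ones within the group, as they were for FASN. Its term was −2.60 ± 0.56 (edgeR adjusted p = 0.0145). The acyl-CoA synthetase ACSBG2 varied most, with 310, 142, 987 and 1405 CPM in the lower series at 3.75 nM against 6.44 to 25.1 CPM at 37.5 nM. Upper series fish had 6.33 to 51.9 CPM at 3.75 nM and 5.67 to 102 CPM at 37.5 nM (term −6.39 ± 1.41, edgeR adjusted p = 0.0158). In 3-year fish FASN ranged from 25 to 735 CPM. SREBF1, the transcription factor that drives these genes, had a term of −1.44 ± 0.50 that did not pass (edgeR adjusted p = 0.0957), and it was looked up after the values were seen.

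The lists of the pentose phosphate path and of the TCA cycle had 1 call each. PGD, the second NADPH-forming step of the pentose phosphate path, had 722, 368, 1575 and 1623 CPM in lower series fish at 3.75 nM and at most 206 CPM in any other fish (term −2.78 ± 0.60, edgeR adjusted p = 0.0145). It was the only 1 of 12 tested members of its list to pass (8.33%, near the 6.33% of all genes), with a list median of −1.08. GSR, glutathione reductase, which spends NADPH, had a term of −1.94 ± 0.45 (edgeR adjusted p = 0.0196), and its lower series groups overlapped (21.6 to 74.9 CPM against 15.8 to 21.7 CPM). The peroxiredoxin prdx1 was the other of 2 negative calls among 40 genes of oxidative stress (term −3.81 ± 0.89, edgeR adjusted p = 0.0199). These 2 were all the calls of that list (5%). Over all genes 1.76% had a negative call and 6.33% had any call. DLAT, the E2 subunit of pyruvate dehydrogenase, stood at 73.4 to 152 CPM in lower series fish at 3.75 nM and at 19.5 to 39.0 CPM in the other 14 fish (term −1.95 ± 0.35, edgeR adjusted p = 0.00636). It was the only 1 of 25 tested TCA cycle genes to pass (4%, against 6.33% of all genes), with a list median of −0.17.

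PDK2, the kinase that switches pyruvate dehydrogenase off, went the other way. It had 9.94, 45, 31.9 and 24.3 CPM in the lower series fish at 3.75 nM, 115 to 159 CPM in those at 37.5 nM, and 114 to 458 CPM in the upper series (term 2.49 ± 0.58, edgeR adjusted p = 0.0195). PDK2 lost its call in 2 of the 18 fits without 1 fish, with a highest adjusted p of 0.056 without fish 167. With cpt1ab (1.65 ± 0.45, edgeR adjusted p = 0.0386), which admits fatty acids to mitochondria, it made up the 2 calls, both positive, among 42 genes of fatty acid oxidation (4.76%, near the 4.57% of all genes), whose median term was 0.13. SLC16A9, a transporter of the monocarboxylate family, was 1 of the genes with opposite signs, −2.21 ± 0.59 (lower) and 1.12 ± 0.51 (upper, term −3.33 ± 0.78, edgeR adjusted p = 0.0195). Its groups overlapped in both series.

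Autophagy genes carried the largest block of positive terms. Of 68 tested genes of lysosome and autophagy, 11 passed and all 11 were positive (16.2%). Over all genes 4.57% had a positive call and 6.33% had any call. The list median was 0.49 (median changes of 0.23 in the lower and −0.07 in the upper series). The 11 were the initiating kinases ULK1 and ulk1a with their partner ATG13, the lipid-binding factors WIPI1, WIPI2 and ATG2A, the membrane tags MAP1LC3A and MAP1LC3B, the receptor CALCOCO1, the lysosomal channel MCOLN1 and the cathepsin ctsla. Terms ranged from 1.33 (ATG13) to 4.89 (CALCOCO1). Fits without 1 fish gave 8 to 15 positive calls in lysosome and autophagy, and the fit without the fish of high intestine score gave 1. Over all genes those fits gave 287 to 1324 and 50 positive calls. Without fish 190 the list median was 0.20 and 3 members had negative calls, beside 547 negative calls among all 16911 genes tested.

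CALCOCO1 (ENSDARG00000036695), a receptor for autophagy of the ER and Golgi in mammals, stood at 2.60, 4.93, 3.33 and 2.77 CPM in the lower series fish at 3.75 nM and at 81.3 to 104 CPM in those at 37.5 nM. Upper series fish at 3.75 nM had 8.67 (fish 189), 41.6, 84.1, 51.7 and 88.9 CPM, and those at 37.5 nM had 30.3 to 74.9 CPM. The term was 4.89 ± 0.66 (edgeR adjusted p = 0.00206); 2 rows carry the symbol. ULK1 (ENSDARG00000074481) had 0.584 to 1.77 CPM in lower series fish at 3.75 nM and 20.2 to 29.6 CPM in those at 37.5 nM. Upper series fish had 2.56 (fish 189) to 17.3 CPM at 3.75 nM and 13.7 to 24.1 CPM at 37.5 nM (term 3.63 ± 0.58, edgeR adjusted p = 0.00433). The paralog ulk1a had 1.84 to 4.15 CPM in the first group, 32.9 to 51.1 CPM in the second, 4.25 (fish 189) to 60.6 CPM in the third and 22.3 to 59.0 CPM in the fourth (term 4.17 ± 0.75, edgeR adjusted p = 0.0065). In all 3 genes the lower series fish at 3.75 nM lay below every other fish, and fish 189 was the lowest of the rest.

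Outside the list, KLHL24, an adaptor of a ubiquitin ligase, stood at 0.183 to 0.739 CPM in the first group, 0.526 CPM in fish 189 and 4.51 to 12.8 CPM in the rest, so that fish 189 lay within the first group (term 4.61 ± 0.84, edgeR adjusted p = 0.00693). BNIP3, a mitophagy receptor that hypoxia induces in mammals, had 6.27 to 14.8 CPM in lower series fish at 3.75 nM and 52.6 to 75.6 CPM in those at 37.5 nM, with 14.8 (fish 189) to 41.6 and 18.2 to 73.3 CPM in the upper series (term 2.66 ± 0.55, edgeR adjusted p = 0.0118). KLHL24 shares its symbol with a second row.

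Calls in insulin and growth factor signalling had the direction of those in autophagy. Of 41 tested members 6 passed, all positive (14.6%). Over all genes 4.57% had a positive call and 6.33% had any call. The 6 included the binding proteins igfbp1b and IGFBP1, which insulin represses in mammals, and the circulating carrier subunit IGFALS. The others were the receptor INSR, its adaptor IRS1 and the transcription factor FOXO4. The list median was 0.60, with median changes of 0.75 (lower) and 0.05 (upper). IGFBP1 (ENSDARG00000099351) stood at 7.03, 12.4, 4.40 and 5.81 CPM in lower series fish at 3.75 nM and at 85.5, 97.1, 49.4 and 244 CPM in those at 37.5 nM. Upper series fish had 34.9, 43.3, 72.5, 13.9 and 58.0 CPM at 3.75 nM and 36.3, 30.3, 16.6, 99.9 and 78.5 CPM at 37.5 nM. The lower series groups were apart and the upper series groups overlapped throughout. The term of IGFBP1 was 3.77 ± 0.82 (edgeR adjusted p = 0.0151), and that of igfbp1b was 4.16 ± 0.85 (0.0112). Without fish 166 or 167, 2 of the 41 genes of growth hormone, insulin and IGF signalling passed, without fish 175 or 177 3 did, and without fish 189 9 did. Over all genes 525, 516, 519, 692 and 2048 passed in those fits, the last out of 17115.

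Of 33 tested hypoxia genes 7 passed (21.2%, against 6.33% of all genes), 3 with a positive term (igfbp1b, IGFBP1 and BNIP3) and 4 with a negative one: the glucose transporter SLC2A1, the prolyl hydroxylases EGLN1 and P4HA2, and HIF1A itself (−0.72 ± 0.19, edgeR adjusted p = 0.0354). SLC2A1 had 12.6, 8.50, 13.2 and 13.5 CPM in lower series fish at 3.75 nM and 3.13 to 3.43 CPM in those at 37.5 nM, while upper series fish had 4.10 to 9.28 and 3.32 to 10.4 CPM (term −1.87 ± 0.40, edgeR adjusted p = 0.0133; 2 rows carry the symbol). Among 41 genes of glycolysis and gluconeogenesis 3 passed, all negative: SLC2A1, HK1 and HKDC1. They made up 7.32% of the list, against 6.33% of all genes with any call and 1.76% with a negative one. HKDC1, a hexokinase, stood at 153, 866, 612 and 842 CPM in the first group and at 8.61 to 17.8 CPM in lower series fish at 37.5 nM. Fish 189 had 257 CPM, the other upper series fish at 3.75 nM had 12.6 to 81.3 CPM, and those at 37.5 nM had 15 to 50.5 CPM (term −4.07 ± 1.11, edgeR adjusted p = 0.0396). HKDC1 lost its call in 14 of 18 fits without 1 fish, and its highest adjusted p was 0.0846 without fish 175.

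The 9 negative calls in translation and protein import were small, with terms between −0.98 (ETF1) and −1.50 (eif4a1a). Of 50 tested translation factors 6 passed (12%, against 6.33% of all genes), 5 of them with a negative term (eif4a1a, EIF4G1, EIF4G2, eif4e1c and ETF1). The 1 with a positive term was the translational repressor eif4ebp3 (3.24 ± 0.65, edgeR adjusted p = 0.011). EIF4G1, the scaffold of the cap-binding complex, had 363, 332, 372 and 405 CPM in the lower series at 3.75 nM and 86.6 to 102 CPM at 37.5 nM. In the upper series it had 249 (fish 189) and 127 to 149 CPM at 3.75 nM, and 91.8 to 101 CPM at 37.5 nM, so that the dose groups were apart in both series. Its term was −1.25 ± 0.24 (edgeR adjusted p = 0.00904), from −1.96 and −0.72. The helicase eif4a1a had a similar term of −1.50 ± 0.28 (edgeR adjusted p = 0.00758), from −2.13 and −0.63.

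Among 33 tested mitochondrial chaperones, proteases and import factors 4 passed, all negative (12.1%). Over all genes 1.76% had a negative call and 6.33% had any call. The 4 were TIMM17A, TOMM22, TIMM9 and TIMM8A, which are all parts of the import machinery. TIMM17A, a channel subunit of the inner membrane, had 124, 117, 119 and 114 CPM in lower series fish at 3.75 nM and 30.6 to 45.9 CPM in those at 37.5 nM. Upper series fish had 46.7 to 79.0 and 44 to 61.9 CPM (term −1.16 ± 0.22, edgeR adjusted p = 0.00915). TOMM22, a receptor of the outer membrane, had 36.7 to 52.7 CPM in the first group, 9.76 to 12.1 CPM in the second, 13.1 to 23.2 CPM in the third and 8.99 to 12.5 CPM in the fourth (term −1.33 ± 0.27, edgeR adjusted p = 0.011). The mitochondrial chaperonin HSPD1, looked up after the values were seen, changed by −2.06 (lower) and −1.63 (upper), and its term did not pass (−0.43 ± 0.41, edgeR adjusted p = 0.581).

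Lists of other complexes of protein and energy metabolism had 0 or 1 call each, against 6.33% of all genes. PSMD12, a subunit of the proteasome lid, was 1 of 50 proteasome genes to pass (term −0.89 ± 0.21, edgeR adjusted p = 0.0203; 61.5 to 74.9 CPM in the first group and 19 to 37.1 CPM in the other 14 fish). LARS1, leucyl-tRNA synthetase, was 1 of 19 synthetases (5.26%, term −0.80 ± 0.23, edgeR adjusted p = 0.0486) and lost its call in 12 of 18 fits without 1 fish. The cytochrome c gene cycsb was 1 of 48 genes of complexes II to V (term −2.07 ± 0.48, edgeR adjusted p = 0.0196; 271 to 469 CPM in the first group and 49.9 to 173 CPM elsewhere). None of the 39 nuclear complex I subunits, 13 mitochondrially encoded messages, 80 cytosolic ribosomal proteins, 39 clock genes or 31 cholesterol genes passed in edgeR's test. Their median terms were −0.02, 0.35, 0.35, 0.42 and 0.24. The term was above 0 in all 13 mitochondrially encoded messages and all 80 ribosomal proteins, against 50.6% of all genes tested. It was above 0 in 16 of the complex I subunits, 26 of the clock genes and 19 of the cholesterol genes. The cholesterol genes had median changes of −1.17 (lower) and −1.03 (upper), and their median term changed sign between fits without 1 fish (−0.51 without fish 175, 0.53 without fish 202).

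**Figure D4:**
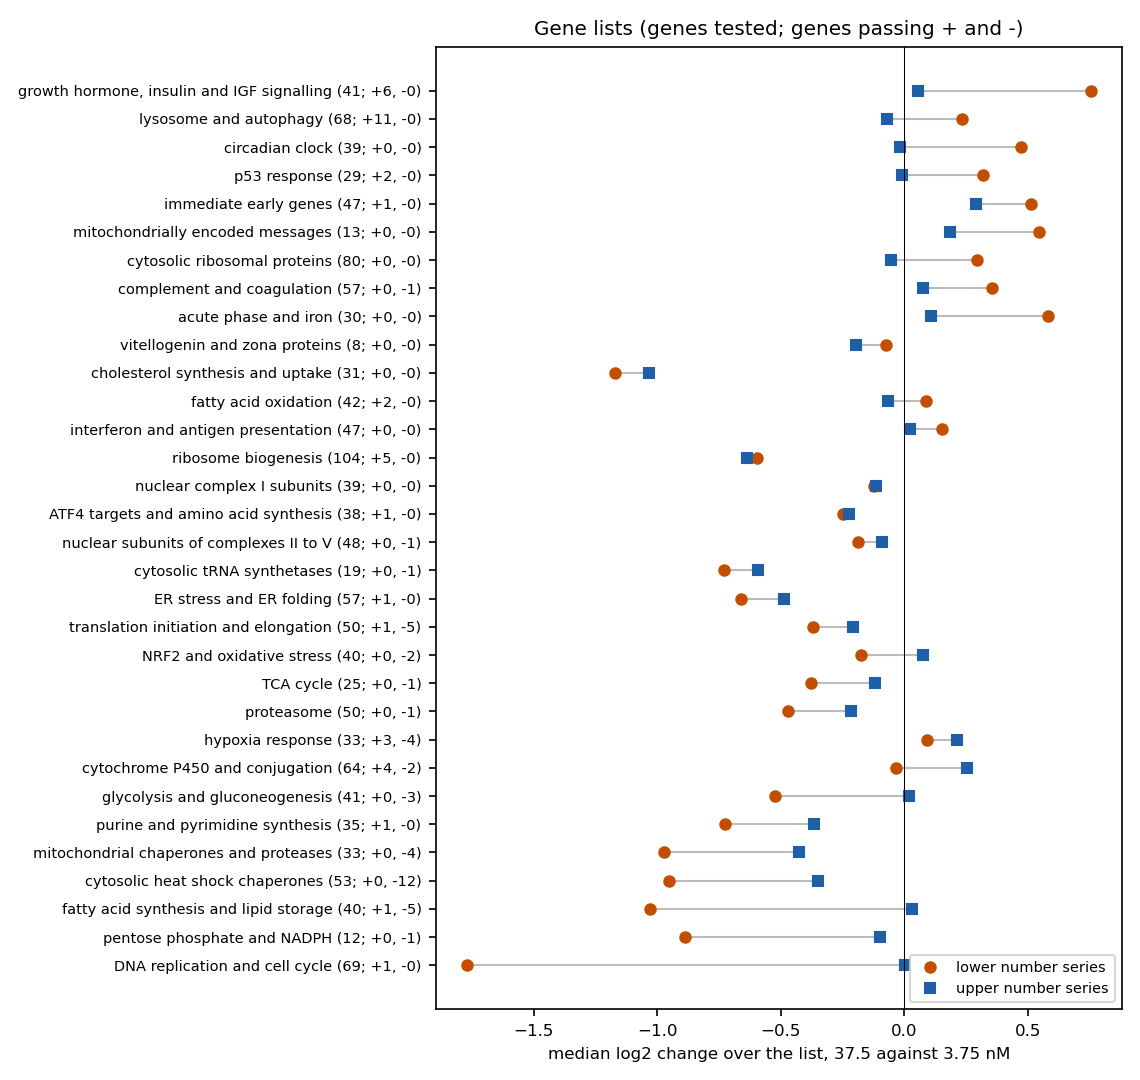
Median log2 change from 3.75 to 37.5 nM over each pathway list in the lower (orange circles) and upper (blue squares) number series; brackets give the genes tested and the number passing with a positive or negative interaction. The widest gaps are those of DNA replication and cell cycle (−1.77 and 0.00) and of fatty acid synthesis (−1.03 and 0.03), while cholesterol synthesis (−1.17 and −1.03) and ribosome biogenesis (−0.60 and −0.64) lie close together.

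The stress cofactor nupr1a stood at 1.8 to 3.35 CPM in the first group and 9.11 to 42.5 CPM elsewhere (term 2.84 ± 0.46, edgeR adjusted p = 0.00433). It was the only call among 38 tested genes of ATF4 targets and amino acid synthesis (2.63%, against 6.33% of all genes), whose median term was −0.08. The pro-apoptotic p53 target bbc3 stood at 0.306 to 0.985 CPM in the first group, 3.43 to 10.1 CPM in the second, and 2.5 (fish 189) to 47.6 CPM in the upper series (term 4.13 ± 0.90, edgeR adjusted p = 0.0146). With DDB2 (1.16 ± 0.26, edgeR adjusted p = 0.0164) it made up the 2 calls among 29 p53 genes (6.90%, near the 6.33% of all genes). Both were positive, and 4.57% of all genes had a positive call. KLF11, a transcription factor counted with the immediate early genes, stood at 15.2 to 31.9 CPM in the first group and at 43.4 to 113 CPM in the second. It reached 60.2 to 188 CPM in upper series fish at 3.75 nM, and 18.1 (fish 202, within the first group) and 82.3 to 106 CPM at 37.5 nM (term 2.64 ± 0.64, edgeR adjusted p = 0.0227). KLF11 lost its call in 5 fits without 1 fish, and it was the only call among 47 tested immediate early genes (2.13%).

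The liver enzyme tdo2b (ENSDARG00000023176), a tryptophan dioxygenase, stood at 12.9, 61.1, 18.3 and 27.8 CPM in lower series fish at 3.75 nM and at 453 to 1079 CPM in those at 37.5 nM. Fish 189 had 22.7 CPM, within the first group, and the other upper series fish had 314 to 1111 CPM (term 4.63 ± 1.02, edgeR adjusted p = 0.0155). IMPDH1, the rate-limiting enzyme of guanine nucleotide synthesis, stood at 7.15 to 11.2 CPM in the first group, 13.3 CPM in fish 189 and 67.7 to 156 CPM in the other 13 fish (term 3.68 ± 0.64, edgeR adjusted p = 0.0056). It was the only call among 35 tested genes of purine and pyrimidine synthesis (2.86%, against 6.33% of all genes), whose median term was −0.34. The bile acid enzyme cyp27a1.1 stood at 11.3 to 26.3 CPM in the first group and 61.0 to 229 CPM elsewhere (term 2.56 ± 0.49, edgeR adjusted p = 0.00951). It was 1 of 4 positive calls among 64 genes of cytochrome P450 and conjugation, beside 2 other CYP27A1 rows and cyp2v1, the list's 6 calls made up 9.38% of it against 6.33% of all genes, and the 2 negative ones were cyp3c4 (−2.52 ± 0.61, edgeR adjusted p = 0.0233) and ugt2b1. The hepatocyte transcription factor CEBPA had a mean of 293 CPM in the first group and of 32.9, 33.2 and 48.1 CPM in the other 3 (term −3.69 ± 0.85, edgeR adjusted p = 0.0188).

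Only ccdc141, a coiled-coil protein gene, differed in kind within the most positive terms: its lower series fish at 37.5 nM were the ones farthest out. They had 38.1, 40.4, 42.9 and 42.6 CPM, against 1.32 to 5.42 CPM in lower series fish at 3.75 nM, 3.03 to 13.1 CPM in upper series fish at 3.75 nM and 4.05 to 10.01 CPM in those at 37.5 nM. The term was 4.16 ± 0.60 (edgeR adjusted p = 0.00252). The 3-year fish had 14.2 to 108 CPM.

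The list of ribosome biogenesis had a share of calls close to that of all genes. Of 104 tested genes 5 passed, all positive (4.81%, against 4.57% of all genes), with a median term of 0.08 and median changes of −0.60 (lower) and −0.64 (upper). The 5 were RCL1, UTP23 and DDX21, which process ribosomal RNA, and the RNA polymerase I subunits POLR1B and polr1e. RCL1, an endonuclease-like processing factor, stood at 7.01 to 13.2 CPM in lower series fish at 3.75 nM and at 19.1 to 56.5 CPM in the other 14 fish (term 2.18 ± 0.45, edgeR adjusted p = 0.0112). The median term changed sign between alternative fits, from −0.18 without the fish of high exocrine pancreas score to 0.19. Without fish 175 or 177, 1 of the ribosome biogenesis genes passed, and without fish 189 12 did, 11 positive and 1 negative. Over all genes 519 of 17696, 692 of 17676 and 2048 of 17115 passed in those 3 fits. The nucleolar GTPase GNL3 changed by −1.91 ± 0.27 and −1.0 ± 0.24, and its term was −0.91 ± 0.35 (95% interval −1.65 to −0.17, edgeR adjusted p = 0.136). Without fish 189 the GNL3 term was −1.08 (edgeR adjusted p = 0.0468).

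Passing genes with the larger change in the upper series numbered 18, each with opposite signs, and POLR1B and polr1e of the ribosome biogenesis list were among them. POLR1B stood at 7.90 to 14.3 CPM in upper series fish at 3.75 nM and at 4.29 to 8.55 CPM in those at 37.5 nM, while the lower series went from 4.36 to 7.62 CPM up to 8.51 to 10.4 CPM (−0.90 ± 0.22 and 0.59 ± 0.25, term 1.49 ± 0.33, edgeR adjusted p = 0.0159). It lost its call in 3 of the 18 fits without 1 fish (highest adjusted p 0.0572, without fish 175), with library size alone and with the 3-year fish added. The smaller terms of polr1e (1.06 ± 0.27), srfbp1 (0.82 ± 0.21), UTP25 (1.00 ± 0.28), RBM19 (0.79 ± 0.22) and rbis (0.82 ± 0.23) had edgeR adjusted p-values of 0.0285 to 0.0483. They lost their calls in 9, 9, 15, 15 and 17 of the 18 fits without 1 fish. Among these genes srfbp1, UTP25, RBM19 and rbis were not on the ribosome biogenesis list, so its share of calls leaves them out. The lipid transporter spns2 had 10.2 to 17.4 CPM in upper series fish at 3.75 nM and 17.6 to 46 CPM in those at 37.5 nM, groups that did not overlap, against 16.1 to 25.2 and 12.9 to 20.5 CPM in the lower series. Its term of −1.46 ± 0.34 (edgeR adjusted p = 0.0201) held in every fit without 1 fish.

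The cell cycle list showed a wide gap with almost no calls. Over 69 tested genes of DNA replication and cell cycle the median change was −1.77 (lower) and 0.00 (upper), and 65 had a term below 0 (median −1.79). The mean log2 CPM of the list was 0.07, 0.20, 1.29 and 2.27 in lower series fish 163, 165, 166 and 167 and −0.88 to 0.20 in those at 37.5 nM. In the upper series it was 2.47 in fish 190 and −0.55 to 1.05 in the other 4 at 3.75 nM, and 2.17 in fish 202 and −0.11 to 1.08 in the other 4 at 37.5 nM. By this mean fish 166, 167, 190 and 202 were the high ones, and fish 163 and 165 overlapped with the lower series fish at 37.5 nM. By summed CPM of the list the lower series groups did not overlap, at 513 to 997 CPM (3.75 nM) and 220 to 283 CPM (37.5 nM). The upper series groups did, at 241 to 831 and 184 to 575 CPM. Only RFC3, a clamp loader subunit, passed, and with a positive term (1.70 ± 0.41, edgeR adjusted p = 0.0227; 1.83 to 4.89 CPM in the first group and 5.45 to 13 CPM elsewhere). RFC3 lost its call in 5 fits without 1 fish. MCM5, a subunit of the replicative helicase, stood at 8.42, 3.57, 12.6 and 19.9 CPM in lower series fish at 3.75 nM and 2.12 to 4.43 CPM in those at 37.5 nM. Upper series fish had 2.92 to 8.88 and 1.34 to 4.46 CPM, and the term of −0.71 ± 0.61 (95% interval −2.01 to 0.59) did not pass (edgeR adjusted p = 0.535). Without fish 190 the list of DNA replication and cell cycle had 8 negative calls, and without fish 165 and 190, which had the high exocrine pancreas scores, it had 12. Over all genes those fits gave 547 negative calls among 16911 genes and 1000 among 17425.

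Neither the cholesterol enzyme MVK nor the red cell anion exchanger SLC4A1 passed. MVK, mevalonate kinase, changed by −2.25 ± 0.65 (lower) and −3.13 ± 0.61 (upper, term 0.88 ± 0.84, 95% interval −0.90 to 2.66, edgeR adjusted p = 0.586). SLC4A1 changed by 1.1 ± 0.48 and 1.92 ± 0.44 (term −0.82 ± 0.64, 95% interval −2.18 to 0.54, edgeR adjusted p = 0.487).

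**Figure D5:**
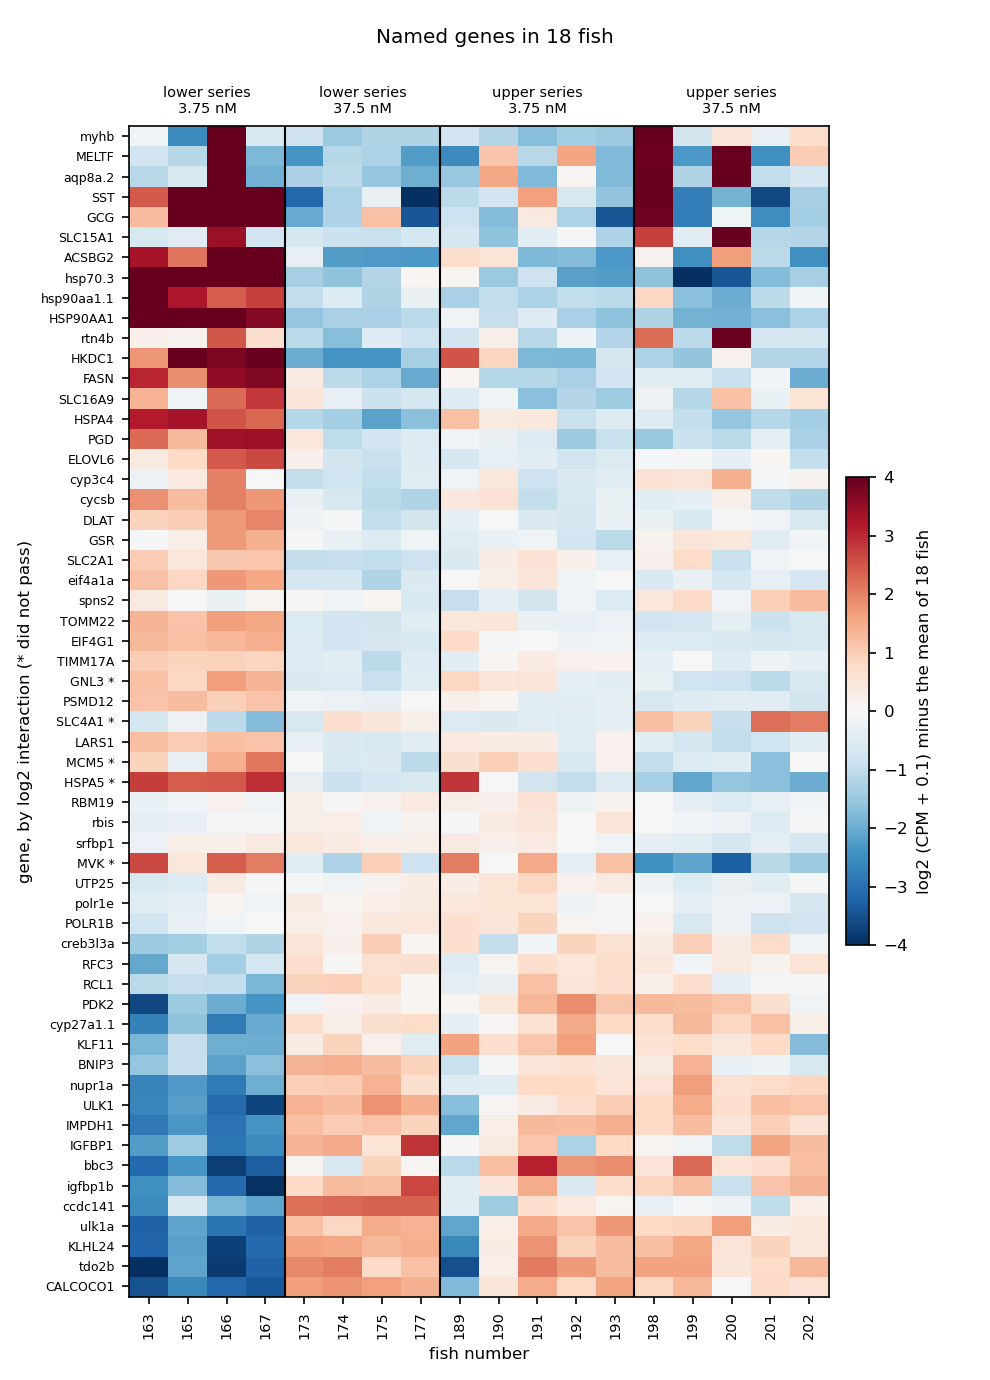
Log2 of CPM plus 0.1, minus the mean of the 18 fish, for the 58 named genes (rows, by interaction term) in each fish (columns, by group); an asterisk marks the 5 genes that did not pass. Below the first rows, where fish 166, 198 and 200 stand out, the lower series fish at 3.75 nM are red towards the top and blue towards the bottom.

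The most negative terms of all belonged to messages of other organs and rested on few fish. The myosin heavy chain myhb stood at 79.5 CPM in fish 166, 82.6 CPM in fish 198 and at most 0.838 CPM in the other 16 (term −13.75 ± 3.28, edgeR adjusted p = 0.0219). The intestinal peptide transporter SLC15A1 stood at 20.7 CPM in fish 166, 12.8 CPM in fish 198, 95.4 CPM in fish 200 and 0.534 to 1.73 CPM elsewhere (term −6.95 ± 1.92, edgeR adjusted p = 0.0418). The water channel aqp8a.2 (−10.03 ± 2.78, edgeR adjusted p = 0.0428), MELTF (−10.72 ± 3.03, 0.0458) and rtn4b (−4.94 ± 1.31, 0.0352) were highest in the same 3 fish. One of 41 intestine markers passed, with a list median of −4.65, and the summed intestine markers were 18057 CPM in fish 166, 13585 CPM in fish 198, 46788 CPM in fish 200 and 2797 to 11363 CPM in the others. The 15 skeletal muscle markers summed to 1201 CPM in fish 198, 76.4 CPM in fish 166 and 12.3 to 44 CPM in the others. Without fish 166 the edgeR adjusted p was 0.098 for myhb, 0.134 for SLC15A1, 0.263 for aqp8a.2, 0.196 for MELTF and 0.082 for rtn4b. These 5 genes lost their calls in 5, 11, 10, 12 and 11 of the 18 fits without 1 fish. With the intestine score as covariate 964 genes passed, 865 of them among the 1089. Without the fish of high intestine score 80 passed, 72 of them among the 1089. The part of these libraries in the other calls was not tested beyond these fits.

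Islet hormones were spread more widely over the lower series. SST, somatostatin, stood at 12.5, 44.4, 93.0 and 57.4 CPM in lower series fish at 3.75 nM and at 0 to 1.79 CPM in those at 37.5 nM. In the upper series fish 198 had 55.5 CPM and the other 9 fish had 0.0893 to 7.06 CPM. GCG, glucagon, had 2.4, 21.2, 46.5 and 20.2 CPM in the first group, 15.9 CPM in fish 198 and at most 2.28 CPM elsewhere. The terms were −8.53 ± 2.35 and −7.90 ± 2.25 (edgeR adjusted p = 0.0414 and 0.047). Without fish 198 neither passed (edgeR adjusted p = 0.133 for SST and 0.138 for GCG). Of 19 tested endocrine pancreas markers 4 passed, all negative (PCSK1, ISL1, GCG and PYY), or 21.1% of the list. SST is not among these 4. Over all genes 1.76% had a negative call and 6.33% had any call. The summed level of the 19 markers was 96.2 to 744 CPM in lower series fish at 3.75 nM, 426 CPM in fish 198, 74.0 CPM in fish 200 and 2.22 to 55.0 CPM in the other 12.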

How the data were processed

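Livers of 24 male fish were sequenced, and the 18 aged 1 year were used in the test. The deposited values were whole-number read counts for each gene, which the authors produced, per the submitters' processing notes, with CASAVA 1.8.2, STAR 2.4.1d and featureCounts 1.4.6-p4 on GRCz10. Libraries came from total RNA with a TruSeq v2 kit, per the labels' protocols, and the strand setting is not given in the sources used here, so genes overlapping on opposite strands cannot be told apart. Values named RPKM by the authors were not used, because they are not RPKM as named. All sample columns of the count tables were used. The tables were joined into 32105 gene rows, of which 26269 have a symbol in the reference table. Several symbols are in human style. Those of IMPDH1, PDK2, SLC16A9, KLF11, SLC15A1 and SLC4A1 are each carried by 2 rows, as are HSPA4, CALCOCO1, KLHL24 and SLC2A1. The values given for these genes are those of 1 row.

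Counts of the 4 groups were filtered with filterByExpr, scaled with TMM factors and fitted in edgeR 4.0.16 with 1 mean per group and no other covariate, and the interaction contrast was tested by quasi-likelihood F, two-sided (common biological coefficient of variation 0.555). p-values were adjusted with the Benjamini-Hochberg method over 17217 genes. The SE is the absolute log2 value divided by the square root of F. CPM values use TMM-scaled library sizes, and the precision of low values is limited by their counts. Changes within a series are descriptions. Each library is 1 fish, so p-values measure the spread between fish.

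The members and the 49 gene lists (32 of pathways, 17 of cell types, 1858 of 1984 entries matched to a gene row) were chosen with earlier results of these data known, and lists have no test. Genes were named by rule, among those passing with a symbol and a mean of at least 5 CPM: the 8 most negative and 8 most positive terms, 6 with opposite signs, 6 with the larger upper series change, 1 or 2 per pathway list, and 7 set genes whatever their value. Some genes that the rule or the lists take are not reported here. Other genes named in the text are list members, or are said to have been looked up.

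Alternatives used other scaling factors, filters, covariates and fish, DESeq2 1.42.0 and limma 3.58.1, and those with fish 189 and the high intestine fish left out together, or counting genes passing in both edgeR and DESeq2, were chosen after seeing the data. The test was checked on simulated counts. R 4.3.3 and Python 3.11.15 were used.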

Additional observations from a re-analysis of the deposited data

Results flagged for a closer look

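The 1089 passing genes are themselves changes that differed between the number series by a test of the difference, and the terms of the 53 named ones follow on the log2 scale. Among chaperones the terms were −5.52 for hsp70.3, −5.50 for hsp90aa1.1, −5.07 for HSP90AA1 and −3.08 for HSPA4. Among genes of metabolism they were −6.39 for ACSBG2, −4.07 for HKDC1, −4.03 for FASN, −3.33 for SLC16A9, −2.78 for PGD, −2.60 for ELOVL6, −2.52 for cyp3c4, −1.95 for DLAT, −1.94 for GSR, −1.87 for SLC2A1 and −1.46 for spns2, with 2.49 for PDK2, 2.56 for cyp27a1.1, 3.68 for IMPDH1 and 4.63 for tdo2b. Genes of translation, import, respiration and the proteasome had −2.07 for cycsb, −1.50 for eif4a1a, −1.33 for TOMM22, −1.25 for EIF4G1, −1.16 for TIMM17A, −0.89 for PSMD12 and −0.80 for LARS1. Autophagy, insulin and stress genes had 4.89 for CALCOCO1, 4.17 for ulk1a, 4.16 for igfbp1b, 4.13 for bbc3, 3.77 for IGFBP1, 3.63 for ULK1, 2.84 for nupr1a, 2.66 for BNIP3, 2.64 for KLF11 and 1.6 for creb3l3a, while KLHL24 had 4.61 and ccdc141 4.16. Among the remaining genes the terms were 2.18 for RCL1, 1.70 for RFC3, 1.49 for POLR1B, 1.06 for polr1e, 1.0 for UTP25, 0.82 for srfbp1, 0.82 for rbis and 0.79 for RBM19. Messages of other organs had −13.75 for myhb, −10.72 for MELTF, −10.03 for aqp8a.2, −8.53 for SST, −7.90 for GCG and −6.95 for SLC15A1. The term of rtn4b was −4.94.

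Single fish stood far from the rest of their group in 18 of 232 groups of the named genes checked, where chance gives about 1 in 20. In lower series fish at 3.75 nM these were fish 166 for SLC15A1 (20.7 CPM), aqp8a.2 (41.3 CPM) and MELTF (79.6 CPM), fish 165 for SLC2A1 (8.50 CPM) and KLF11 (31.9 CPM), and fish 167 for RCL1 (7.01 CPM). In lower series fish at 37.5 nM they were fish 173 for ACSBG2 (25.1 CPM), fish 174 for RFC3 (8.11 CPM) and fish 175 for TIMM17A (30.6 CPM). In upper series fish at 3.75 nM they were fish 189 for HSPA5 (1370 CPM, against 95.3 to 188 CPM in the other 4) and EIF4G1 (249 CPM), and fish 192 for LARS1 (18.3 CPM). In upper series fish at 37.5 nM they were fish 198 for myhb (82.6 CPM) and SST (55.5 CPM), fish 199 for nupr1a (42.5 CPM), fish 200 for igfbp1b (1.76 CPM) and HKDC1 (50.5 CPM), and fish 202 for KLF11 (18.1 CPM).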

How the results depend on the processing

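No paired analysis was possible because no groups share fish numbers. The count of 1089 (786 positive, 303 negative) stayed within 1.5 times under RLE (1060) and upper-quartile factors, library size alone, a mean of at least 5 CPM, the robust fit, the intestine score as covariate, added 3-year fish, limma-trend and the genes passing in both edgeR and DESeq2. Library size alone gave 193 negative calls, and no filter on low counts gave 680 genes (451 positive). DESeq2 called 2023 (927 negative), with 1082 of the 1089 among them, and limma voom called 2859 (1823 positive, 1036 negative). Without the 5 fish of high intestine score 80 genes passed (50 positive, 30 negative), without the 2 of high exocrine pancreas score 1844 (1000 negative), and without fish 189 and the high intestine fish 1705 (795 negative). Groups were smaller in these fits, and neither group size nor another cause of the shifts was tested. Leaving out 1 fish gave 516 to 2048 genes, 287 to 1324 positive and 156 to 724 negative, and moved the share with the lower series 3.75 nM group farthest out only between 81.1% and 89.8%. That share was 76.2% or more in every setting that gave one, and the share with opposite signs went from 32.7% (mean of at least 5 CPM) to 64.9% (without fish 189 and the high intestine fish). Of the 53 named genes that passed, RLE kept 50, DESeq2 kept 52 of 52, voom 46, library size alone 39 and the fit without high intestine fish 7 of 52. No named gene changed sign. The median term of all genes, 0.01, was −0.15 without the high exocrine fish or fish 177, and −0.07 with RLE factors. Low counts limit genes below about 1 CPM.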

Other observations

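None of the 47 interferon and antigen presentation genes, 30 acute phase and iron genes, 17 macrophage, 12 neutrophil, 16 T and NK lymphocyte, 17 erythrocyte or 12 thrombocyte markers passed in edgeR's test, nor did any of 8 vitellogenin and zona genes or 4 testis markers. Over all genes 6.33% passed and 3744 had an unadjusted p under 0.05, so that 0 calls in the shorter lists is near the share of all genes. Among 57 complement and coagulation genes 1 passed, proca1 (−4.10 ± 1.07, edgeR adjusted p = 0.0329), at a mean of 1.12 CPM. Of 25 endothelium markers the receptor flt1 passed (−1.77 ± 0.46, edgeR adjusted p = 0.0319). Of 25 stellate cell and fibroblast markers LRAT, which esterifies retinol, had a positive term (1.38 ± 0.37, edgeR adjusted p = 0.0356), and the matrix gene FN1 a negative one (−2.77 ± 0.77, edgeR adjusted p = 0.0431). SWAP70 was the 1 call among 11 B cell markers (2.09 ± 0.37, edgeR adjusted p = 0.0056).

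Exocrine pancreas messages varied between libraries of every group without a call. The 33 markers summed to 4113 to 24541 CPM in lower series fish at 3.75 nM and 1088 to 18402 CPM at 37.5 nM. In the upper series they summed to 339.9 to 31590 CPM and 686 to 18890 CPM. All 4 groups overlapped, and the list median term was −0.79. Of 8 adipocyte markers 1 passed, CEBPA, which hepatocytes express too.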
